A study of Homo sapiens with 9 samples.

Results

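The genes described here are the lysosomal hydrolases with their activator proteins, the lysosomal membrane proteins, the vacuolar proton pump (V-ATPase) and the 3 transcription factors TFEB, TFE3 and MITF. They were chosen by name, 51 genes among the 70116 gene identifiers of the count table, and cathepsins are left out. All 51 were found, each under 1 identifier, and 48 had enough reads to be tested. U2OS, an established human osteosarcoma cell line, was profiled by RNA sequencing of poly(A) RNA in 9 libraries, 3 in each of 3 groups. In the first group wild-type U2OS cells had received vehicle, and in the second wild-type cells had received palbociclib, an inhibitor of the cell cycle kinases CDK4 and CDK6, for 4 days. The third group held PERK KO cells, U2OS in which CRISPR/Cas9 had been directed at PERK, a stress kinase of the endoplasmic reticulum encoded by EIF2AK3, and these had also received palbociclib for 4 days. No knockout cells on vehicle were analysed here, so whether the response to the drug differs between the genotypes was not tested. The labels do not say whether the knockout line is 1 clone or a pool, nor whether the replicates, called sets 1 to 3, were separate cultures, so the p-values reflect only how these libraries vary and that spread may be technical.

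Lysosomes break down macromolecules with acid hydrolases, which travel from the Golgi and work at the low pH that the V-ATPase maintains. The pump has a membrane-embedded V0 sector that carries protons and a cytosolic V1 sector that splits ATP. TFEB, TFE3 and MITF are related basic helix-loop-helix factors that bind E-boxes such as CACGTG and, when nutrients are short, enter the nucleus and switch on many lysosomal genes.

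Because these factors read the promoters of lysosomal genes, the promoters were searched for the letters CACGTG, which read the same on both strands. The window ran from 250 bases before to 50 bases after 1 start per gene, the first listed, and other starts were not searched. RefSeq promoters of GRCh38.p14 could be matched for 37 of the 51 genes. The core was present in 10 of 37 (27.0%), against 7.43% of all 27305 promoters of that length, and the longer palindrome TCACGTGA, which contains it, in 6 of 37 (16.2%) against 1.04%. The sequences below show 1 such site each from genes that go different ways in the results: LAMP1, MCOLN1, CD63, ATP6V0D1 and ATP6V1G1 rose with palbociclib, ATP6V0E2 fell, ATP6V0B was not called, and GAA was hardly counted at all. Capitals mark the core, and the other letters are the 20 bases on each side, 5′ to 3′ on the gene's own strand.
LAMP1, chr13:113297191-113297236, plus strand: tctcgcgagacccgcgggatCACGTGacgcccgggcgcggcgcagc
MCOLN1, chr19:7522563-7522608, plus strand: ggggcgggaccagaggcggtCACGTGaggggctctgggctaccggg
CD63, chr12:55729164-55729209, minus strand: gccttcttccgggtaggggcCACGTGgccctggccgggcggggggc
ATP6V0D1, chr16:67481191-67481236, minus strand: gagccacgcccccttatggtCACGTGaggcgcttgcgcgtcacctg
ATP6V1G1, chr9:114587691-114587736, plus strand: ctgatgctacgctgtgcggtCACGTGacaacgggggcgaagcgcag
ATP6V0E2, chr7:149872876-149872921, plus strand: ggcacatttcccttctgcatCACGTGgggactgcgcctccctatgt
ATP6V0B, chr1:43974883-43974928, plus strand: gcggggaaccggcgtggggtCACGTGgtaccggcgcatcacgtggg
GAA, chr17:80101485-80101530, plus strand: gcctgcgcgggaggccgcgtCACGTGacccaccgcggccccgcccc
In the window of LAMP1 the core occurred 6 times, and in those of MCOLN1, ATP6V0B, GAA and CLN3 it occurred 2 times. The core was present in 5 of the 25 matched genes that rose with palbociclib (20.0%). It was present in 3 of the 9 that were tested and did not rise (33.3%). These shares were not compared in a test, and the genes are too few to say whether the letters separate them. A match is only a run of letters, and binding was not measured.

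Total counts ran from 33674039 to 42577874 per library. EIF2AK3 mRNA, given as CPM, counts scaled to a common library total with TMM factors, was 31.7, 34.8 and 32.8 in wild-type cells on vehicle, 35.7, 36.8 and 31.8 in wild-type cells on palbociclib and 19.7, 18.7 and 17.8 in the knockout libraries (log2 fold change -0.89 on the drug, adjusted p = 5.98e-09), so the labelled genotype and the transcript level went together. Markers of osteoblasts and mesenchymal cells were high in U2OS (COL1A1 averaged 2467 CPM on vehicle), although COL1A2 averaged 1.42 CPM and TWIST1 0.07 CPM. KRT8, an epithelial keratin, averaged 420.1 CPM. Of 10 haematopoietic markers CD3E and HBB were at 0 in every library, and the 10 together summed to 1.14 to 1.32 CPM on vehicle, 1.53 to 1.95 in wild type on palbociclib and 2.06 to 2.56 in the knockout. Osteoclasts, which are rich in V-ATPase and lysosomal enzymes, were represented by 8 markers, with OCSTAMP at 0 in every library and the osteoclast pump subunit ATP6V0D2 at a group mean of 0.047 to 0.12 CPM; the 8 summed to 7.85 to 13.4 CPM on vehicle, 12.5 to 17.7 in wild type on palbociclib and 17.8 to 27.4 in the knockout, most of it MMP9. The 10 endothelial markers summed to 42.9 to 44.9, 51.3 to 59.1 and 59.0 to 62.1 CPM, most of it EGFL7. In bulk RNA, fewer cells of a type and less RNA per cell cannot be told apart, and CPM gives a share of the library, not an amount per cell.

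TFE3, NEU1, the lysosomal sialidase, and GAA, the glycogen-degrading acid alpha-glucosidase, are listed with 1, 5 and 2 counts over all 9 libraries and were not tested. Around NEU1 the table is thin as a whole: 83 of 100 protein-coding genes within 1 Mb had under 10 counts, against 21.4% of all 19855 protein-coding genes, and TUBB, a tubulin gene of that stretch that most dividing cells transcribe strongly (picked after its value was seen), is listed with 5 counts. Near TFE3 the share was 28 of 56 and near GAA 3 of 16. How the reads of these genes were assigned was not stated in any label or header, so no absence is read from these counts. CLN3, a membrane protein lost in a form of Batten disease, had 146 counts in all, ATP6V0A1 470 and ATP6V0C 954, and their fold changes have wide errors. Exons of 11 members overlap another gene by 500 bases or more. They are PPT1 (with CAP1), IDUA (with SLC26A1), NPC1 (with RMC1), MAN2B1, MANBA, TPP1, ATP6V0E2, HEXA, IDS, CLN3 and ATP6V0C. CLN3 shares 2480 exon bases with AC138894.1 and ATP6V0C 862 of its 1498 with AC093525.2, both on the member's own strand. The counter and its strand setting are not given, so reads shared with those neighbours cannot be told apart.

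Per kilobase of exon, the most abundant member on vehicle was PSAP, the precursor of the saposins that help hydrolases reach their sphingolipids, at 274 CPM per kb. CD63, a tetraspanin of late endosomes, followed at 121 CPM per kb, LAMP1, a heavily glycosylated protein of the lysosomal membrane, at 82.1, PPT1, which removes palmitate from proteins, at 55.6, and NPC2, the soluble carrier that hands cholesterol to NPC1, at 36.7. MITF stood at 2.60 CPM per kb and TFEB at 1.38.

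Most of these mRNAs were higher in wild-type cells after palbociclib. Of the 48 tested, 37 rose, 4 fell and 7 were not called in the edgeR quasi-likelihood test at an adjusted p under 0.05. Over all 19408 tested genes, 21.3% were called higher and 22.3% lower. The median log2 fold change of the members was 0.42 and that of all tested genes -0.02. Summed over all 51 genes, the level was 4085 to 4328 CPM in the vehicle libraries (mean 4233 ± 130.0, SD, n = 3) and 5569 to 5771 CPM on palbociclib (5697 ± 111), with no overlap. Abundant genes such as PSAP weigh most in this sum. The 8 sphingolipid hydrolases and activators, PSAP among them, averaged 1207 CPM of it on vehicle and 1852 on palbociclib. Among the members only IDUA and SMPD1 exceeded a log2 fold change of 1.

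**Figure D1:**
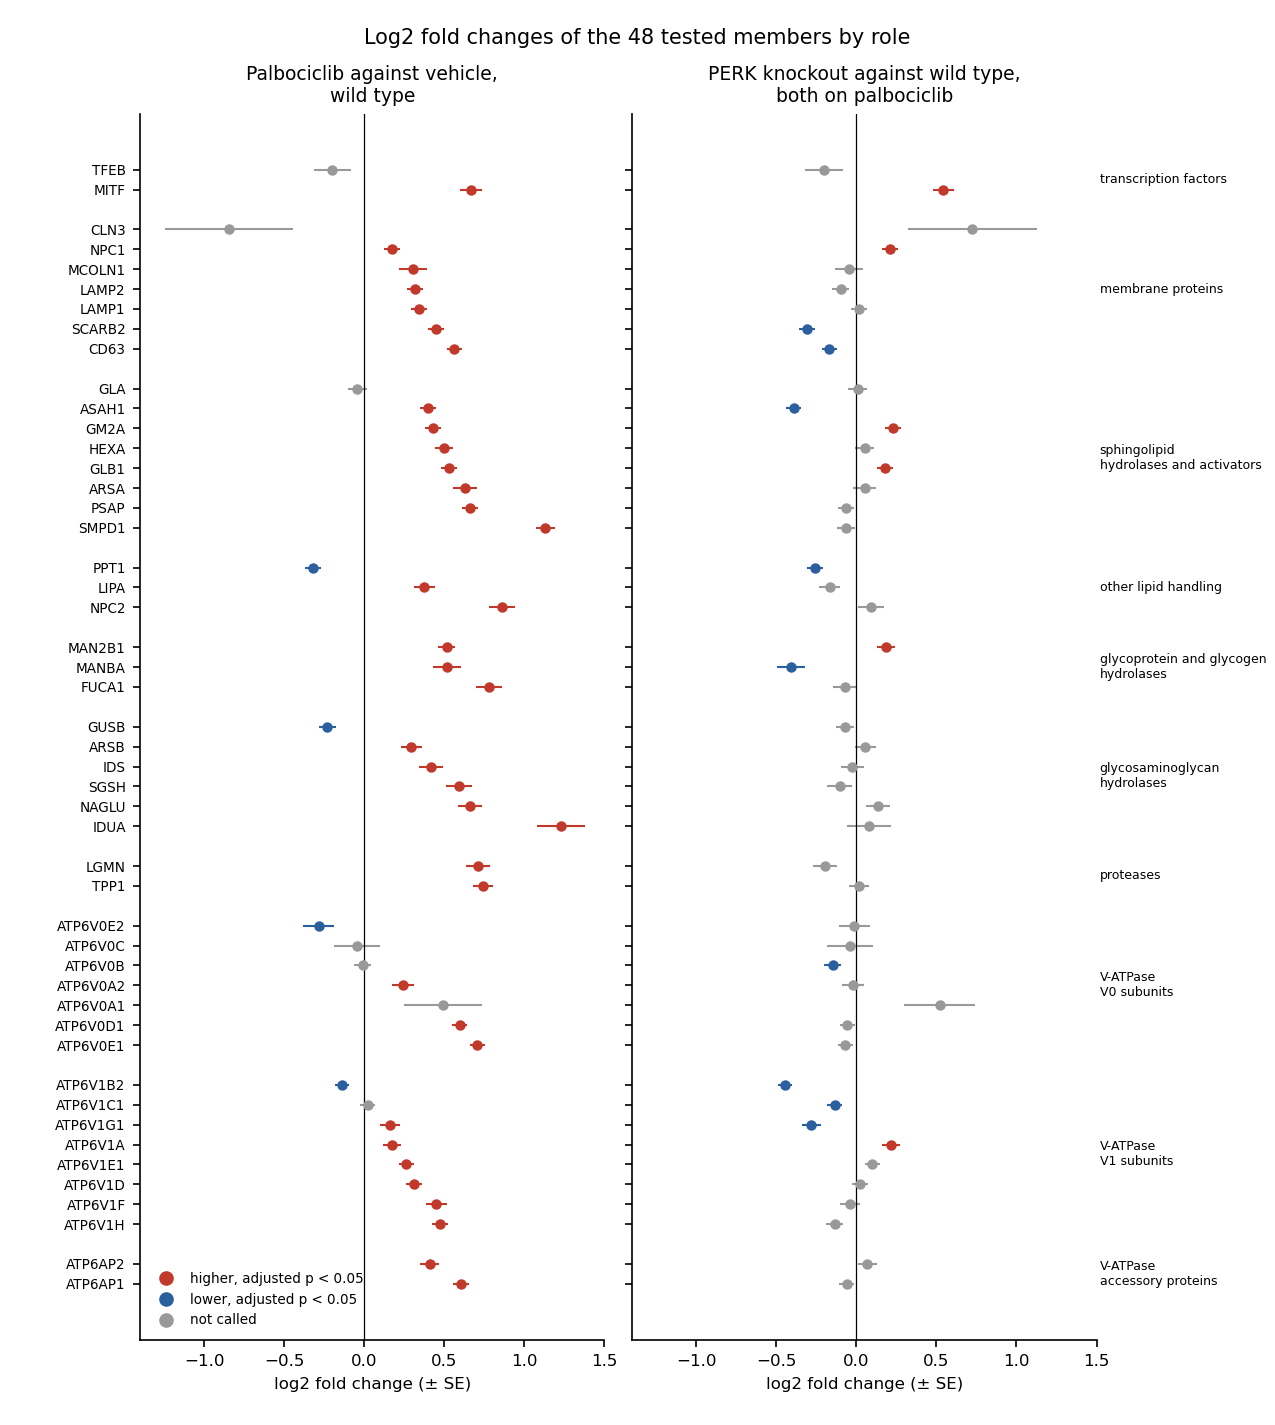
Log2 fold change with its SE for each of the 48 tested members, ordered by role and, within a role, by the value on the left. The left panel compares palbociclib with vehicle in wild-type cells and the right panel PERK knockout with wild type on palbociclib. Red and blue points were called higher or lower and grey points were not called: on the left 37 points are red and 4 blue, on the right 6 are red and 9 blue.

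Among the transcription factors, MITF rose and TFEB was not called. MITF (Ensembl ENSG00000187098.18, GRCh38 chr3:69739435-69968337, plus strand) stood at 18.8, 19.7 and 17.5 CPM on vehicle and 29.6, 32.2 and 27.4 on palbociclib (log2 fold change 0.67, SE 0.068, adjusted p = 1.62e-07). Every palbociclib library lay above every vehicle library. TFEB, at 6.71, 8.20 and 8.53 CPM on vehicle and 6.10, 6.74 and 7.53 on palbociclib, overlapped between the groups (log2 fold change -0.20, adjusted p = 0.168; 0.0448 without vehicle set 1). These values are of mRNA only, and the factors' place in the cell, where nutrient control acts, was not measured.

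All membrane proteins rose except CLN3, 6 of 7. LAMP1 went from 467, 483 and 464 CPM to 592, 595 and 605 (log2 fold change 0.34, SE 0.050, adjusted p = 1.28e-05). LAMP2, the receptor of chaperone-mediated autophagy, went from 183, 203 and 208 CPM to 239, 255 and 244 (log2 fold change 0.32, adjusted p = 5.00e-05). The groups did not overlap for either gene. CD63 had the highest log2 fold change of the 7, 0.56, and SCARB2, the receptor that carries glucocerebrosidase to the lysosome, had 0.45. MCOLN1, the calcium channel of the lysosomal membrane, was low, at 11.3, 9.97 and 11.2 CPM on vehicle and 12.4, 14.3 and 13.2 on palbociclib (log2 fold change 0.30, adjusted p = 0.00835). NPC1, the cholesterol exporter, rose the least, from 50.1, 48.1 and 47.9 CPM to 56.8, 55.5 and 52.3 (log2 fold change 0.17, adjusted p = 0.00887). The calls of these last genes rest on few libraries: without vehicle set 2 or palbociclib set 2 the adjusted p of MCOLN1 was 0.057 or 0.0568, and without palbociclib set 1 that of NPC1 was 0.0531.

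Sphingolipid hydrolases and their activators gave 7 rises in 8 genes, with a median log2 fold change of 0.51. SMPD1, acid sphingomyelinase, which cuts sphingomyelin to ceramide (ENSG00000166311.10, chr11:6390431-6394998, plus strand), stood at 21.8, 22.0 and 22.4 CPM on vehicle and 49.3, 47.1 and 48.7 on palbociclib, 219% of the vehicle level (log2 fold change 1.13, SE 0.057, adjusted p = 1.52e-11). Its libraries were close together within each group and far apart between them. PSAP, the most abundant member, went from 851, 913 and 899.6 CPM to 1360.1, 1411 and 1446 (log2 fold change 0.66). On the log2 scale ARSA, which desulfates sulfatide, rose by 0.63, and GLB1, the beta-galactosidase whose activity is stained for in senescent cells, by 0.53. HEXA, a subunit of the hexosaminidase that degrades GM2 ganglioside, rose by 0.50, its activator GM2A by 0.43 and ASAH1, acid ceramidase, by 0.40. GLA, alpha-galactosidase A, was not called (log2 fold change -0.04, SE 0.059) and ran from 38.9 to 42.6 CPM on vehicle and 36.9 to 40.2 on palbociclib. SMPD1 and ASAH1, which act one after the other on sphingomyelin and ceramide, both rose.

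In the other lipid genes the drug moved NPC2 up and PPT1 down. NPC2 (ENSG00000119655.11, chr14:74476192-74494177, minus strand) stood at 91.4, 100.03 and 111 CPM on vehicle and 162, 186 and 202 on palbociclib (log2 fold change 0.86, SE 0.083, adjusted p = 2.79e-06). Its partner in cholesterol export, NPC1, changed by 0.17, so the transcripts of this pair rose to different degrees. LIPA, the acid lipase that splits cholesteryl esters, rose by 0.38. PPT1 (ENSG00000131238.18, chr1:40071461-40097727, minus strand) fell from 273, 284 and 291 CPM to 226, 234 and 219 (log2 fold change -0.32, SE 0.048, adjusted p = 1.97e-05), with no overlap between the groups. It had the lowest log2 fold change of the called members.

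The 3 tested hydrolases of glycoproteins all rose. FUCA1, which removes fucose, went from 9.09, 10.2 and 10.2 CPM to 15.7, 17.3 and 17.4 (log2 fold change 0.78, SE 0.079, adjusted p = 1.58e-07). MAN2B1 and MANBA, the alpha- and beta-mannosidases, rose by 0.51 and 0.52. Of 6 hydrolases of glycosaminoglycans, 5 rose and GUSB fell. IDUA, which acts on heparan and dermatan sulfate, had the highest log2 fold change of all members but a low level, 3.62, 2.94 and 3.63 CPM on vehicle and 6.75, 7.23 and 9.84 on palbociclib (log2 fold change 1.23, SE 0.15, adjusted p = 2.92e-06). The set 3 library was the highest of the treated ones, and all 3 lay above the vehicle libraries. NAGLU and SGSH, which degrade heparan sulfate, rose by 0.66 and 0.59, IDS by 0.42 and ARSB by 0.29. GUSB, beta-glucuronidase, often used as a reference gene in PCR, fell from 85.2, 87.6 and 89.3 CPM to 68.9, 76.9 and 77.2 (log2 fold change -0.23, SE 0.053, adjusted p = 0.00133). Both peptidases of the list rose: TPP1, a tripeptidyl peptidase, from 50.7, 55.6 and 58.0 CPM to 85.6, 92.3 and 96.7 (log2 fold change 0.74), and LGMN, which cuts after asparagine, from 75.4, 80.3 and 87.2 CPM to 123, 131 and 142 (log2 fold change 0.71).

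**Figure D2:**
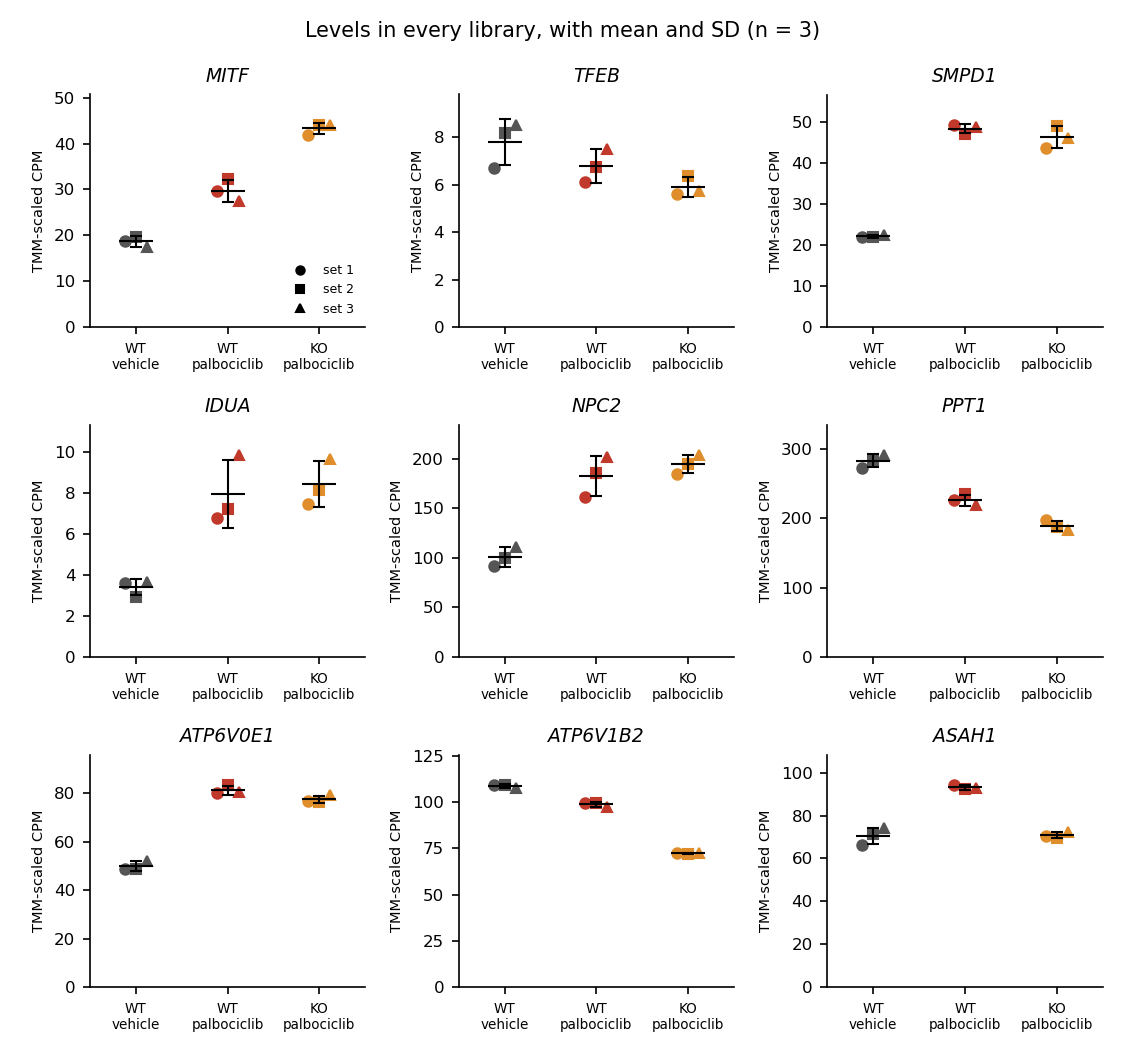
Levels of 9 members in TMM-scaled CPM (linear axis from 0), with 1 symbol per library, the shape giving the set and the bar the mean and SD of 3 libraries. SMPD1, IDUA, NPC2 and ATP6V0E1 are higher in both palbociclib groups, PPT1 is lower in both, MITF is highest in the knockout, and ASAH1 in the knockout lies at 69.7 to 72.5 CPM, within its range on vehicle.

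In the V-ATPase more genes rose than fell, with some going the other way. Of its 17 tested genes 11 rose (64.7%) and 2 fell (11.8%), with a median log2 fold change of 0.26. Over all tested genes 21.3% were called higher and 22.3% lower. Of the 29 hydrolases, activators, peptidases and membrane proteins 25 rose and 2 fell, with a median of 0.50. The difference between these groups of genes was not tested. Among the V0 subunits ATP6V0E1 (log2 fold change 0.71), ATP6V0D1 (0.59) and ATP6V0A2 (0.24) rose. ATP6V0D1, which couples V0 to the stalk of V1, went from 45.8, 47.2 and 45.6 CPM to 69.1, 69.0 and 71.2. The 2 paralogs of subunit e went opposite ways: ATP6V0E1 went from 48.8, 48.7 and 52.2 CPM to 80.0, 83.6 and 80.5, and ATP6V0E2 from 13.1, 12.0 and 10.6 CPM to 10.6, 9.57 and 9.21 (log2 fold change -0.29, adjusted p = 0.0217). The fall of ATP6V0E2 lost its call without vehicle set 1 or 2 or without palbociclib set 2 or 3 (adjusted p 0.0583 to 0.109). ATP6V0B, part of the proton-carrying ring, ran from 68.1 to 75.9 CPM on vehicle and 69.8 to 74.0 on palbociclib (log2 fold change -0.01, SE 0.052), and ATP6V0C and ATP6V0A1 were not called either.

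In the V1 sector 6 of 8 subunits rose, by 0.16 to 0.47 on the log2 scale. The regulatory subunit ATP6V1H stood at 36.2 to 38.8 CPM on vehicle and 50.9 to 52.1 on palbociclib, and ATP6V1F, ATP6V1D and ATP6V1E1 of the stalks rose by 0.45, 0.31 and 0.26. The head that splits ATP is built of subunits A and B, and their genes diverged: ATP6V1A rose by 0.17 (adjusted p = 0.0208), with a vehicle library inside the palbociclib range, while ATP6V1B2 went from 109, 109 and 108 CPM to 99.7, 99.6 and 97.4 (log2 fold change -0.14, adjusted p = 0.0151). Small changes such as these depend on single libraries. ATP6V1A was not called without vehicle set 1 or 3 or palbociclib set 1 or 2 (adjusted p 0.0563 to 0.111), and ATP6V1B2 not without palbociclib set 3 (0.112), with the 6 libraries fitted alone (0.0795) or without the filter on low counts (0.114). ATP6V1G1 lost its call under 6 alternatives. ATP6V1C1 was not called (log2 fold change 0.02). The accessory proteins ATP6AP1 and ATP6AP2, which help the pump assemble, rose by 0.61 and 0.41.

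**Figure D3:**
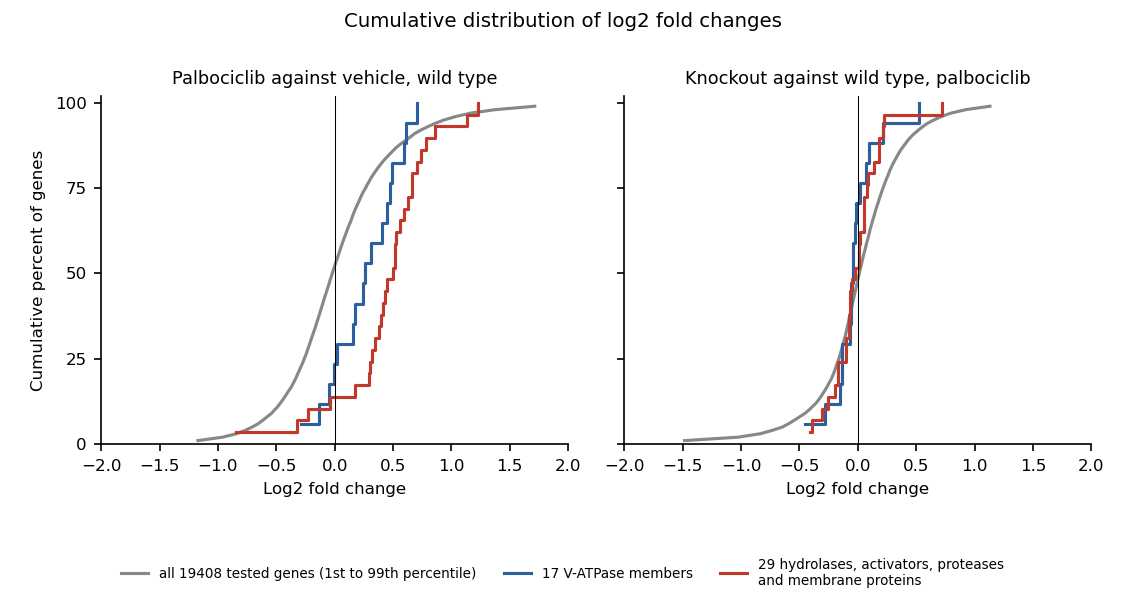
Cumulative percent of genes at or below each log2 fold change, for the 17 V-ATPase genes, the 29 hydrolases, activators, peptidases and membrane proteins, and all 19408 tested genes from their 1st to their 99th percentile. On the left, palbociclib against vehicle, both member curves lie to the right of all genes through most of their range (medians 0.26 and 0.50 against -0.02); on the right, knockout against wild type on palbociclib, they run close to 0.

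Other genes of the pathway, 91 on a list that holds no member, were mostly higher or not called. Of 84 tested, 44 rose (52.4%) and 7 fell (8.33%) with palbociclib, with a median log2 fold change of 0.19. Over all tested genes 21.3% were called higher and 22.3% lower. Further lysosomal hydrolases and the proteins that mature them rose in 17 of 23 cases with no fall, and further membrane proteins in 14 of 19 with 1 fall. Genes of delivery to the lysosome were mixed, with 5 of 14 higher (35.7%) and 4 lower (28.6%). Those that control TFEB by nutrients gave 3 higher of 14 (21.4%), near the share of all tested genes, and 1 lower (7.14%). The highest log2 fold changes were those of ATP6V0A4, a V0 subunit best known from kidney (1.61, 0.908 to 1.55 CPM on vehicle and 3.55 to 4.89 on palbociclib), SUMF1, which activates the sulfatases (1.10), ARSG, a heparan sulfatase (0.99), and HGSNAT, the acetyltransferase of heparan sulfate breakdown (0.97). The lowest were those of the peptide transporter ABCB9 (-0.65), CLN6, an endoplasmic reticulum protein needed for enzyme export (-0.62), ATP6V1C2 (-0.45) and the Golgi adaptor GGA2 (-0.27). Of the sulfatases among the members, ARSA, ARSB, IDS and SGSH all rose, as did their activator SUMF1, at 9.57, 9.41 and 9.85 CPM on vehicle and 20.5, 19.5 and 21.9 on palbociclib.

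Other measures moved between the same 2 groups, in which 21.3% of all tested genes were called higher and 22.3% lower. Of the 9 tested osteoblast and mesenchymal markers 7 rose, with the list's sum going from 6026 to 6565 CPM on vehicle to 9255 to 10659 CPM on palbociclib. Of the 8 tested epithelial markers 4 rose (sum of 10 markers 660.1 to 693 and 868 to 922 CPM, most of it KRT8 and KRT18). EPCAM (-0.32), KRT14 (-0.32) and CLDN4 (-0.12) had log2 fold changes below 0 and were not called. Of the 8 tested endothelial markers 4 rose and 1 fell. TIE1 rose the most (log2 fold change 2.39), from a low mean of 0.67 CPM to 3.51. Of 10 tested immediate early and heat shock genes 5 rose, among them EGR1 (1.22, from a mean of 25.6 CPM to 59.6). EGR2 (1.28) and FOSB (1.22) also rose but were low, at means of 0.54 and 0.41 CPM on vehicle. FOS (-0.01) and EGR3 (-0.62) were among those not called. Of 4 tested nuclear retained RNAs 1 rose. Of the 13 mitochondrially encoded mRNAs 0 were called by edgeR or DESeq2, and 0 had an unadjusted p under 0.05; with the set as a block 4 were higher and 1 lower. Their part in the lysosomal values was not tested.

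Between PERK knockout and wild-type cells, both on palbociclib, 15 of these mRNAs differed, in both directions. Of 48 tested, 6 were higher, 9 lower and 33 not called, with a median log2 fold change of -0.04; over all tested genes 14.9% were called higher and 13.0% lower, so the counts of members lay near the background. This comparison uses the same wild-type palbociclib libraries as the one above, so a gene that happens to be high in them looks raised by the drug and lowered by the knockout. Of the 37 genes that rose with the drug, 5 were lower in the knockout, 6 higher and 26 not called. With the set as a block, 7 members were higher and 13 lower: ATP6V0A1 was added to the higher ones (blocked adjusted p = 0.0385), and LAMP2 (0.0471), LIPA (0.0163), LGMN (0.000202) and ATP6V1H (0.0228) to the lower ones. With the block 36.4% of all tested genes were called in either direction, against 27.9% without it, so the members' count grew along with that of all genes. Without the block the adjusted p of these 5 ran from 0.0519 to 0.167.

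MITF was the member with the highest log2 fold change called in the knockout. Its level was 29.6, 32.2 and 27.4 CPM in wild type and 41.8, 44.1 and 44.0 in the knockout (log2 fold change 0.54, SE 0.065, adjusted p = 2.37e-06), with no overlap. TFEB ran from 6.10 to 7.53 CPM in wild type and 5.62 to 6.38 in the knockout and was not called (-0.20, adjusted p = 0.215). The other 5 that were higher had small differences: GM2A (0.23, from 65.8, 66.5 and 64.3 CPM to 79.6, 78.1 and 72.8), ATP6V1A (0.22), NPC1 (0.21, from 56.8, 55.5 and 52.3 CPM to 64.0, 62.5 and 64.2), MAN2B1 (0.19) and GLB1 (0.18). For each of these 5 the 3 knockout libraries lay above the 3 wild-type ones. Single libraries decided 3 of the calls: GLB1 was lost without wild-type set 1 (adjusted p = 0.0576), ATP6V1A without wild-type set 3 (0.0711) and MAN2B1 without knockout set 2 (0.0846) or 3 (0.0622).

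Lower in the knockout were the pump subunits ATP6V1B2, ATP6V1G1, ATP6V0B and ATP6V1C1, the hydrolases ASAH1, MANBA and PPT1, and the membrane proteins SCARB2 and CD63. ATP6V1B2, the catalytic head's B subunit in most tissues, stood at 99.7, 99.6 and 97.4 CPM in wild type and 72.5, 72.2 and 72.7 in the knockout (log2 fold change -0.45, SE 0.044, adjusted p = 1.91e-07). ASAH1 went from 94.4, 92.3 and 92.8 CPM to 70.7, 69.7 and 72.5 (log2 fold change -0.39, SE 0.049, adjusted p = 4.28e-06). Both genes showed narrow groups that lay far apart. MANBA went from 20.1, 18.1 and 20.7 CPM to 14.6, 14.7 and 15.1 (log2 fold change -0.41, SE 0.086, adjusted p = 0.00116), and SCARB2 from 245, 241 and 229 CPM to 189, 198 and 189 (log2 fold change -0.31, SE 0.048, adjusted p = 5.93e-05). PPT1, which was already lower with the drug in wild type, went from 226, 234 and 219 CPM to 197, 188 and 183 (log2 fold change -0.26, SE 0.049, adjusted p = 0.000447), and ATP6V1G1 from 42.9, 42.0 and 41.8 CPM to 34.7, 32.7 and 36.9 (log2 fold change -0.28). CD63 fell by 0.17, ATP6V0B by 0.15 and ATP6V1C1 by 0.13 on the log2 scale. The last pair were not called without wild-type set 2 or 3 or without knockout set 2 or 3, and ATP6V1C1 also not without wild-type set 1 or without the filter on low counts (adjusted p for the pair 0.0517 to 0.139).

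Several of these differences were shared by the genes around them on the chromosome. For each member the median log2 fold change of the other tested genes within 5 Mb on either side was taken. Around ATP6V1B2 it was -0.39 (67 genes, against -0.45 for the gene) and around ASAH1 -0.40 (52 genes, against -0.39). It was -0.25 around MANBA (-0.41 for the gene), -0.13 around SCARB2 (-0.31) and -0.13 around ATP6V1G1 (-0.28). Around ATP6V1C1 it was -0.04 (-0.13 for the gene) and around ATP6V0B -0.005 (-0.15). Each of these genes lay further from 0 than its neighbours. ATP6V1B2 and ASAH1 lie in the same stretch, each in the other's window, so these are not separate cases. The neighbours of genes that were higher also ran high: 0.23 around GM2A (0.23 for the gene), 0.22 around NPC1 (0.21) and 0.19 around GLB1 (0.18). By contrast the neighbours were near 0 around MITF (0.01), PPT1 (-0.02), CD63 (0.03), MAN2B1 (-0.02) and ATP6V1A (0.05). Across the 48 members the gene's value and its neighbours' median had r = 0.69 (rho = 0.62) in the knockout comparison and r = 0.20 (rho = 0.19) in the drug comparison, as a description over genes that share libraries and in part windows. The part of the chromosomal surroundings in the knockout differences was not tested.

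**Figure D4:**
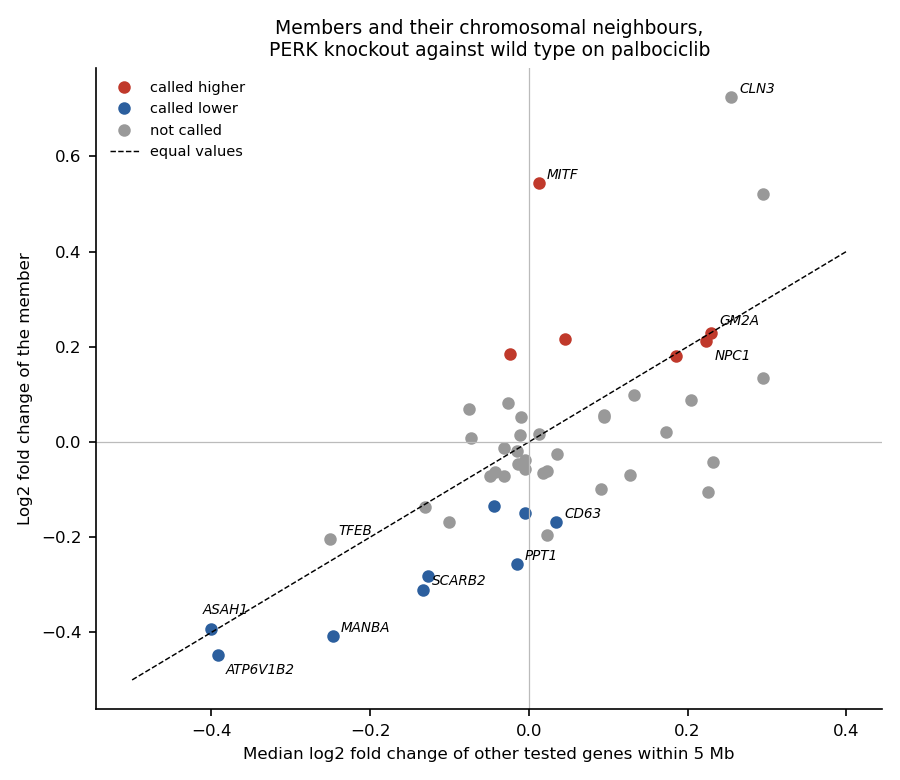
Log2 fold change of each of the 48 tested members in PERK knockout against wild type on palbociclib (vertical axis) against the median log2 fold change of the other tested genes within 5 Mb on each side (horizontal axis). Points on the dashed line change as much as their neighbours. ATP6V1B2, ASAH1, GM2A and NPC1 lie near the line, while MITF lies above it at 0.54 and PPT1 below it at -0.26, each with neighbours near 0.

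With edgeR, calls in the knockout comparison were absent among the glycosaminoglycan hydrolases (0 of 6), the peptidases (0 of 2) and the V-ATPase accessory proteins (0 of 2), lists too short to set against the 27.9% of all tested genes called. Of the peptidases, LGMN was called with DESeq2 and had an unadjusted p under 0.05; of the accessory proteins 0 of 2 were called with DESeq2, with the block or at an unadjusted p under 0.05. For the glycosaminoglycan hydrolases the values were close to 0 (log2 fold changes -0.10 to 0.14; 0 of 6 also with the set as a block, with DESeq2 and at an unadjusted p under 0.05). LAMP1 ran from 592 to 605 CPM in wild type and 566 to 637 in the knockout (0.01, SE 0.049), NPC2 from 162 to 202 and 185 to 204 (0.09, SE 0.081), and MCOLN1 from 12.4 to 14.3 and 12.2 to 14.0 (-0.05, SE 0.087). Of the members that rose most with the drug, SMPD1 (-0.07, SE 0.055), IDUA (0.08, SE 0.14), FUCA1 (-0.07, SE 0.076) and TPP1 (0.02, SE 0.061) were not called either. LAMP2 went from 239, 255 and 244 CPM to 225, 231 and 233 and LGMN from 123, 131 and 142 CPM to 103, 119 and 125; LGMN was lower in the knockout within each of the 3 sets although its groups overlapped.

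Among the other pathway genes 16 of 84 were higher in the knockout and 21 lower. Of all tested genes, 14.9% were called higher and 13.0% lower. Both pathway shares lay above these, that of the lower calls by more, and the differences in share were not tested. Among the higher ones were ROGDI, a V-ATPase regulator (log2 fold change 0.54), SUMF1 (0.51) and the sulfatase ARSK (0.41). Lowest were TPCN1, an endolysosomal cation channel, from 32.4, 30.2 and 32.4 CPM to 20.0, 18.7 and 20.3 (-0.69), PLBD2, a phospholipase-like protein of the lumen, from 165, 161 and 157 CPM to 100.3, 107 and 103 (-0.64), AGA, which cleaves the asparagine-sugar bond of glycoproteins (-0.62), and NCOA7 (-0.38). Other cell markers also differed between these groups: 5 of 8 tested epithelial markers were lower in the knockout (sum 569 to 593 CPM, most of it KRT8 and KRT18), and of 8 tested endothelial markers 1 was higher. The 9 tested osteoblast and mesenchymal markers gave 2 higher and 2 lower. CSF1R was the 1 haematopoietic marker of 3 tested that was higher (log2 fold change 0.85, mean 0.64 CPM in wild type and 1.16 in the knockout). For osteoclast markers the count was 0 of 2 tested. Of 4 tested nuclear retained RNAs NEAT1 was higher (log2 fold change 1.09), SNHG14 lower (-0.78), and MALAT1 (0.21) and KCNQ1OT1 (0.12) were not called. Of 10 tested immediate early and heat shock genes 1 was higher and 2 lower. Of the 13 mitochondrially encoded mRNAs 0 were called by edgeR, DESeq2 or with the block, and 0 had an unadjusted p under 0.05. Their part in the lysosomal values was not tested.

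Knockout cells on palbociclib stood above wild-type cells on vehicle for most of the members. In this comparison genotype and drug differ at once and cannot be told apart. Of 48 tested, 35 were higher, 7 lower and 6 not called, with a median log2 fold change of 0.39; 25.7% of all tested genes were called higher and 26.0% lower. Both this and the drug comparison in wild type use the same 3 vehicle libraries, so calls shared by them are not separate evidence. Among the 37 genes that rose in wild type, ASAH1, MANBA and ATP6V1G1 were the 3 not called here. ASAH1 was 69.7 to 72.5 CPM in the knockout on palbociclib and 66.5 to 74.0 in wild type on vehicle (log2 fold change 0.01, SE 0.050). ATP6V1G1 was called lower here with the set as a block (adjusted p = 0.0452; 0.105 without it). MITF reached 232% of the vehicle level (log2 fold change 1.21, SE 0.067, adjusted p = 1.64e-11), and TFEB stood at 75.6%, with the 3 knockout libraries below the 3 vehicle libraries (log2 fold change -0.40, SE 0.12, adjusted p = 0.00591). The neighbours of TFEB had a median of -0.33 in this comparison. ATP6V1B2 (-0.59) and PPT1 (-0.58) had the lowest values, followed by TFEB, GUSB (-0.30), ATP6V0E2 (-0.30), ATP6V0B (-0.16) and ATP6V1C1 (-0.11). Without vehicle set 1 or without knockout set 3, only 4 members were called lower.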

How the data were processed

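Poly(A) RNA from U2OS cells was sequenced in 9 libraries. The authors deposited unnormalized whole-number counts, 1 column for each library. STAR 2.7.9a, Trim Galore, FastQC, CASAVA and DESeq2 are named, and hg38 as build, per the submitters' processing notes. Counter, strand setting and annotation: not given in the sources used here.

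The 70116 Ensembl identifiers were matched to symbols (62700) and to GENCODE 29 positions on GRCh38 (58261). The test was the quasi-likelihood F test of edgeR 4.0.16 (in R 4.3.3, with limma 3.58.1 loaded; DESeq2 1.42.0 as an alternative; Python 3.11.15, pandas 2.3.3 and matplotlib 3.10.9), with TMM factors (0.977 to 1.01), the default low-count filter (19408 genes, 99.91% of counts) and robust fitting of all 9 libraries in 1 model of 3 groups (6 residual degrees of freedom, biological coefficient of variation 5.99%). The call threshold was a p of 0.05 after Benjamini-Hochberg adjustment over all tested genes. CPM values are scaled by the TMM factors, SDs are over 3 libraries, and SEs come from the F statistic. The fit was tested on simulated counts. Totals of 33674039 to 42577874 counts limit precision for genes with few counts.

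The members and lists were chosen with earlier results of these data known. Named genes were TFEB, TFE3, MITF, LAMP1, LAMP2, MCOLN1, NPC1 and NPC2, up to 6 highest and 6 lowest called members of the first 2 comparisons, and up to 4 highest and 4 lowest called pathway genes at a mean of at least 1 CPM; other members are given by fold change or range, and those shown with library values beyond that rule were chosen after their values were seen. A result the rule would name is not reported here. Each set number occurs in every group. Library deviations from their group mean correlated at 0.18 to 0.54 in all 9 same-number pairs of libraries and at -0.40 to 0.071 otherwise (12932 genes). Libraries of 1 number may therefore be paired, which rests on the correlations and on no label. The main fit left the set out, so calls, SEs and adjusted p-values are unpaired unless the block is named. The block was fitted as an alternative, as were other size factors, no filter, only the compared libraries and leaving out each library.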

Additional observations from a re-analysis of the deposited data

How the results depend on the processing

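No member reversed its direction among called values under any of the 15 alternatives. With palbociclib against vehicle in wild type, 34 to 37 members rose and 3 or 4 fell when single libraries were left out (37 and 4 in all), and 36 or 37 rose and 3 or 4 fell under the other alternatives; 35 of the 41 calls held under all of them. For knockout against wild type on palbociclib the counts were 5 or 6 higher and 7 to 11 lower on leaving out a library (6 and 9 in all), 6 or 7 higher and 10 to 13 lower under the others, and 10 of 15 calls held throughout. For knockout on palbociclib against wild type on vehicle, 33 to 35 were higher and 4 to 6 lower on leaving out a library (35 and 7 in all), 34 or 35 higher and 6 to 8 lower under the others, and 35 of 42 calls held; the count of 4 lower came without vehicle set 1 or without knockout set 3, and the cause was not tested. The replicate block gave 37 higher and 4 lower, 7 and 13, and 35 and 8 in the 3 comparisons, with no call changed beyond those given in the text. SCARB2, called higher in the last comparison (adjusted p = 0.0236), was not called with library size alone (0.0749) or without vehicle set 1 (0.12) or knockout set 2 (0.108). ATP6V1C1, called lower there (0.0485), lost its call under 13 of the 15. Low counts limit CLN3, ATP6V0A1 and ATP6V0C, and those of TFE3, NEU1 and GAA allow no comparison. Exons of CLN3 and ATP6V0C also overlap other genes, and what keeps their counts low was not tested.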

Other observations

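Levels of 4 members also differed between the sets in the model with the set as a block: NPC2 (adjusted p = 0.000355), LGMN (0.000771), TPP1 (0.0107) and IDUA (0.0309) (8.33% of the 48 tested, and 8.07% of all tested genes, so the share of members was that of the background). NPC2 was lowest in set 1 and highest in set 3 in each of the 3 groups, with 91.4, 100.03 and 111 CPM on vehicle, 162, 186 and 202 in wild type on palbociclib and 185, 195 and 204 in the knockout. The peptidases LGMN and TPP1 showed the same order, and IDUA was highest in set 3 of each group. What the sets share is not given in the sources used here.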
